A study of Rattus norvegicus with 6 samples.

Results

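The genes described here are 31 rat genes of sterol and fatty acid synthesis, comprising enzymes of the cholesterol pathway from acetyl-CoA to the last sterol step, the SREBP transcription factors with their control proteins, and the enzymes that make, elongate and desaturate fatty acids. They were chosen by gene symbol, and each was read from the array probe whose RefSeq transcript maps to it, taking the brightest probe where there was more than 1. Of the 31 genes, 27 had a probe matched in this way, and all 27 passed the filter on dim probes and were tested. For Mvk, Insig1, Srebf1 and Fasn no probe was matched, and they are not analysed here. The array matched 13903 genes in all. RNA came from pancreatic islets, the endocrine cell clusters of the pancreas, freed with collagenase. There were 3 samples of adult rats, all male, and 3 samples that each pooled P10 rats, which were 10 days old, an age at which rats still suckle. The labels used here do not state the strain, the adult age, the sex of the P10 rats or the number of rats per pool, and no group carried a treatment or an engineered allele. The question of the study was how islet mRNAs and long non-coding RNAs differ between these stages.

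Cholesterol is built from acetyl-CoA through mevalonate, isoprenoids, squalene and a series of ring-modifying steps, while fatty acids are built from acetyl-CoA through malonyl-CoA and then lengthened and desaturated. Transcription of both sets of enzymes is driven by the SREBP factors, which the escort protein Scap carries to the Golgi for cleavage when sterols are low and which Insig proteins hold back in the endoplasmic reticulum when sterols are high. In beta cells, malonyl-CoA links glucose use to fatty acid oxidation, and membrane cholesterol affects insulin granule release.

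Each array held 24684 probes, of which 17829 to 18731 were well above background, and 0 spots were saturated. A level is the log2 signal of a probe minus the 75th percentile of its array, so it says nothing about one gene against another gene. Adult arrays 2 and 3 differed least of the adult pairs and P10 arrays 1 and 2 had the least shared difference of the P10 pairs. Each of these pairs was averaged and counted as 1 sample, which gave n = 2 per stage. Adult array 1 stood apart from the other 2 adult arrays and was on the slide that also held the P10 arrays, so rat and slide cannot be told apart among adults. Adult arrays 2 and 3 were on another slide without P10 arrays. Stage and slide are therefore partly confounded in each difference of the reported fit. A difference is adult minus P10 in log2 with its standard error (SE), tested with limma at a Benjamini-Hochberg adjusted p of 0.05 over 18362 probes. The labels name separate rats and pools. However, the variance between P10 arrays 2 and 3 was 0.91 of that expected from repeat spots, as between arrays 1 and 2. Over the 27 genes the median standard deviation between counted samples was 0.05 at P10 and 0.18 in adults. Where the counted P10 samples carry the same RNA, the p-values measure technical spread in part. Ins1 (insulin) lay at 6.19 or more and Gcg (glucagon) at 6.22 or more above the 75th percentile on every array.

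The synthesis genes moved in both directions between the stages. Sqle, Msmo1, Insig2, Me1, Scd and Elovl5 were higher in adult islets, and Mvd, Hsd17b7, Ebp, Sc5d, Acaca, Acacb and Fads2 were lower. By limma this made 6 higher, 7 lower and 14 that did not pass among the 27 tested, against a background of 21.3% of all tested probes called higher and 31% called lower. Both member shares thus lie near the background of this comparison, in which 52.3% of probes were called. At 2-fold or more, 5 were higher and 6 lower, against 14.6% and 23.7% of all probes. The median difference of the 27 genes was 0.08, against -0.23 over all probes. That overall shift depends on the scaling between arrays and was -0.02 with quantile normalization and 0.07 with scaling to the array median. Of the 26 genes measured on all 6 arrays, 11 had all adult values above all P10 values, 10 had them all below and 5 overlapped, where the background was 31.9% and 45.9% of probes measured on all arrays.

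**Figure D1:**
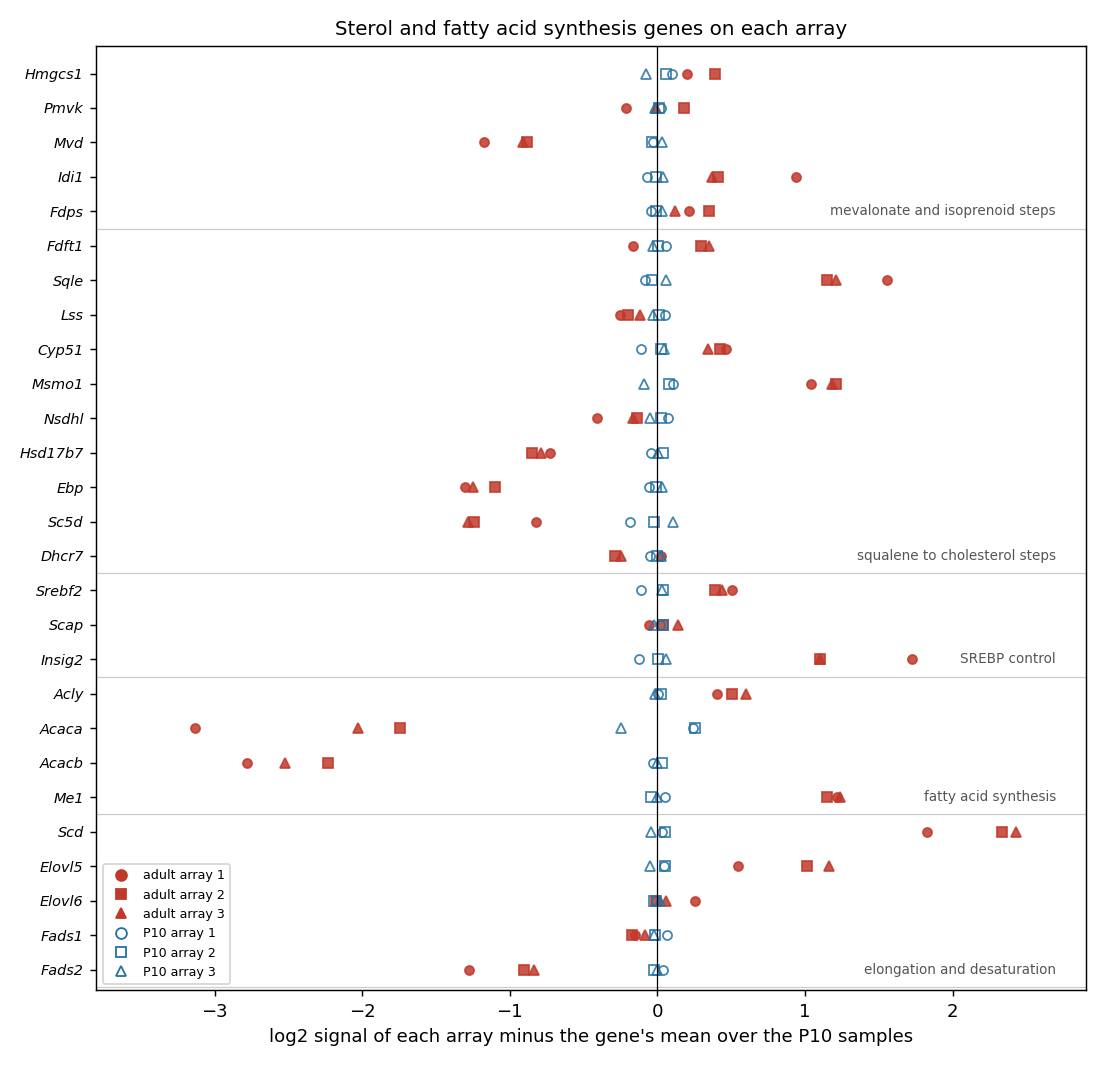
Level of each of the 27 genes on each array, in log2 units relative to the gene's own mean over the P10 samples (x axis), with genes in pathway order (y axis). Filled symbols are the 3 adult arrays and open symbols the 3 P10 arrays. The P10 arrays sit close to 0, while adult values reach furthest left for Acaca and Acacb and furthest right for Scd.

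Markers of other cells moved between the stages as well, in a comparison that called 21.3% of all tested probes higher and 31% lower. All 9 tested enterocyte markers, among them Alpi and Vil1, were lower in adult islets, and their summed linear level relative to the 75th percentile was 9.96 to 10.6 on the adult arrays and 188 to 198 on the P10 arrays. Of these markers Apoa4 was not well above background on any adult array, and another was so on only 1. Both were tested only through the P10 arrays. The 7 markers well above background on all 6 arrays were all lower, with a median of -6.96. The summed acinar level was 563.5 to 797 in adults and 1629 to 1741 at P10, with 9 of 11 markers lower (4 lower and 1 higher with quantile normalization). The summed cell cycle level was 10.8 to 11.8 against 20.1 to 21.4, with 6 of 7 markers lower, and the summed stromal level 48.6 to 52.6 against 104 to 111, with 3 of 4 lower and 1 higher. All 8 tested leukocyte markers, Ptprc among them, were higher in adults, but 2 of these were not well above background on any P10 array and so were tested only through the adult arrays. The 7 leukocyte markers measured on all arrays summed to 6.87 to 7.42 in adults and 1.73 to 1.85 at P10. That sum leaves out Lyz2, named here after its values were seen, which read 4.95, 5.17 and 4.84 in adults and 2.19 and 2.08 on P10 arrays 1 and 3. Of 6 tested adipocyte markers 2 were higher and 3 lower, with differences of 2.87 for Adipoq and -5.80 for Cidec. The 6 adipocyte markers measured on all arrays, of which 1 was not well above background on any array, summed to 9.14 to 10.3 in adults and 10.9 to 11.6 at P10. These markers were read in the same comparison as every gene group below, and their part in the results was not tested. In bulk RNA, fewer cells of a type and less RNA per cell cannot be told apart.

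**Figure D2:**
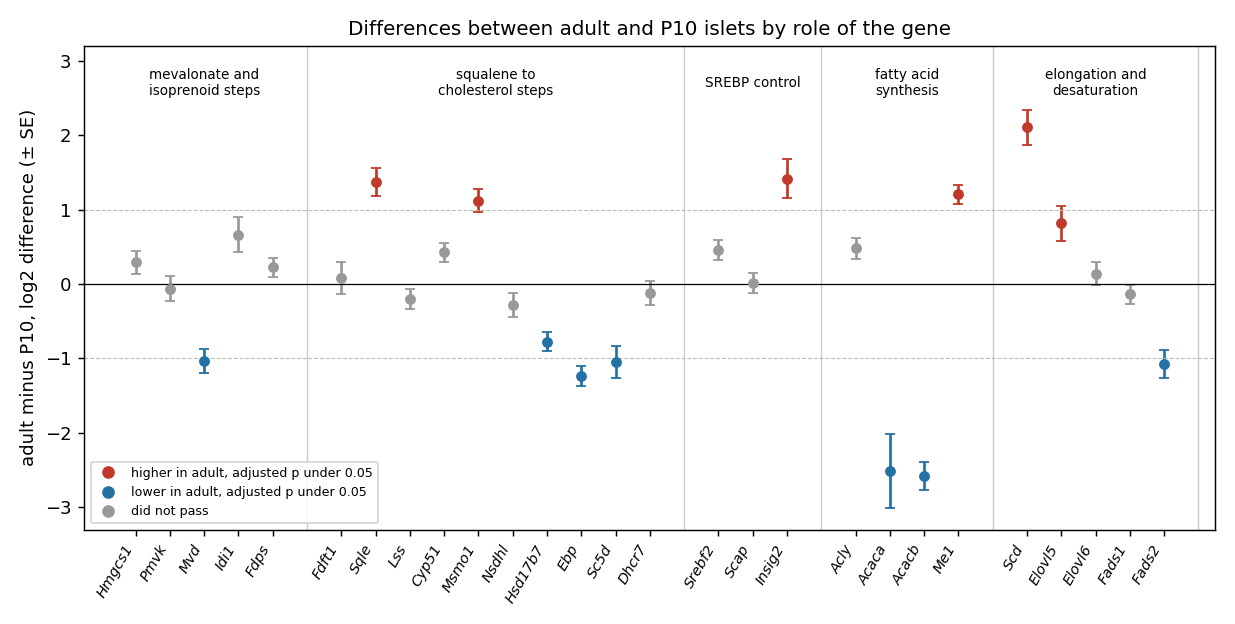
Difference between adult and P10 islets (y axis, log2, points with SE, n = 2 per stage) for each gene along the pathways (x axis), split by role. Red points were higher and blue points lower in adults at an adjusted p under 0.05, and grey points did not pass. Dashed lines mark a 2-fold difference. Calls of opposite direction stand within the squalene to cholesterol steps, within fatty acid synthesis and within elongation and desaturation.

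Of the 5 tested genes of the mevalonate and isoprenoid steps, 1 was lower and 4 did not pass, with a median of 0.22. Mvd, the decarboxylase that turns mevalonate pyrophosphate into isopentenyl pyrophosphate, read 0.56, 0.85 and 0.82 on the adult arrays and 1.70, 1.70 and 1.76 on the P10 arrays. Every adult value lay below every P10 value, and the level was 2.05-fold lower in adults (difference -1.03, SE 0.16, limma adjusted p = 0.0117). Idi1, which isomerises the product of Mvd, read 2.68, 2.16 and 2.11 in adults and 1.67, 1.73 and 1.78 at P10. Its adult arrays were all above the P10 arrays, but adult array 1 stood well above the other 2, and the difference of 0.66 (SE 0.24) did not pass (limma adjusted p = 0.0813). Hmgcs1, the synthase before mevalonate, read 0.51 and 0.69 on adult arrays 1 and 2 and 0.40, 0.37 and 0.23 at P10, and its spot on adult array 3 was left out as an outlier. Its difference was 0.30 (95% interval -0.14 to 0.73). Fdps, which makes farnesyl pyrophosphate, differed by 0.22 (95% interval -0.14 to 0.59), and Pmvk, the kinase before Mvd, by -0.06 (95% interval -0.53 to 0.40). Pmvk changed sign under other settings, and without P10 array 3 the call of Mvd was lost (limma adjusted p = 0.133).

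The squalene to cholesterol steps had 10 tested genes, of which 2 were higher, 3 lower and 5 did not pass, with a median of -0.16 (0.14 with scaling to the array median). Sqle, the epoxidase that makes squalene epoxide and a rate-limiting step of the pathway, read 2.99, 2.59 and 2.65 in adults and 1.35, 1.40 and 1.50 at P10. It was 2.58-fold higher in adults, with no overlap between the stages (difference 1.37, SE 0.19, limma adjusted p = 0.00873). Msmo1, the oxidase that starts removal of the sterol methyl groups at carbon 4, read 2.63, 2.80 and 2.78 in adults against 1.70, 1.67 and 1.50 at P10. It was 2.17-fold higher, and all 3 adult arrays lay above the P10 arrays (difference 1.12, SE 0.15, limma adjusted p = 0.00862).

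The 3 lower enzymes, Hsd17b7, Ebp and Sc5d, act after Msmo1. Hsd17b7, the ketoreductase that completes the removal of a methyl group begun by Msmo1, read -3.15, -3.26 and -3.20 in adults and -2.46, -2.38 and -2.41 at P10. It was 1.71-fold lower in adults without overlap (difference -0.77, SE 0.13, limma adjusted p = 0.0138). Ebp, the isomerase that moves the double bond in the sterol ring, read 1.39, 1.59 and 1.44 in adults and 2.64, 2.68 and 2.72 at P10. All adult arrays were well below all P10 arrays, a 2.36-fold lower level (difference -1.24, SE 0.14, limma adjusted p = 0.00526). Sc5d, the desaturase that acts after Ebp, read -0.17, -0.58 and -0.63 in adults and 0.47, 0.64 and 0.76 at P10. It was 2.06-fold lower in adults, with adult array 1 nearest to the P10 arrays (difference -1.04, SE 0.22, limma adjusted p = 0.0224).

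The other 5 enzymes of these steps did not pass. Cyp51, which removes the methyl group at carbon 14 of lanosterol, read 1.86, 1.82 and 1.74 in adults and 1.29, 1.43 and 1.44 at P10. Its stages did not overlap, and its difference was 0.42 (SE 0.13, limma adjusted p = 0.0628). Fdft1, the squalene synthase, differed by 0.08 (95% interval -0.53 to 0.69). Lss, the lanosterol synthase, differed by -0.20 (95% interval -0.58 to 0.17), and Nsdhl, which acts between Msmo1 and Hsd17b7, by -0.28 (95% interval -0.73 to 0.17). Dhcr7, which makes cholesterol from its immediate precursor, differed by -0.12 (95% interval -0.58 to 0.34). Fdft1, Lss, Nsdhl and Dhcr7 changed sign under other settings. With scaling to the array median, Hsd17b7 and Sc5d no longer passed (limma adjusted p = 0.117 and 0.114), nor did Hsd17b7 with normexp background correction (limma adjusted p = 0.0657), and without P10 array 3 all 5 calls of these steps were lost.

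Promoters are shown for the 4 enzymes past lanosterol that were called, 1 higher and 3 lower, so that the sequence before genes that moved apart can be compared. Each is the stretch of 250 bases before the RefSeq start in the GRCr8 assembly, 5′ to 3′ on the gene's own strand, and capitals mark CCAAT boxes (CCAAT, or ATTGG on the other strand) and the E-box CACGTG. Msmo1 lies at chr16:29746863-29747112 on the plus strand, Hsd17b7 at chr13:84722755-84723004 on the minus strand, Ebp at chrX:16971212-16971461 on the plus strand and Sc5d at chr8:51538278-51538527 on the minus strand.
Msmo1: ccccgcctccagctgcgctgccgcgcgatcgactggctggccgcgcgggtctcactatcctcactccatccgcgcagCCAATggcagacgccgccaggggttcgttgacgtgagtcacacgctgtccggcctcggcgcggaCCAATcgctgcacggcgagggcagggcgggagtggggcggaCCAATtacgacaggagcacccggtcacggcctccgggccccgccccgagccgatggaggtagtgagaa
Hsd17b7: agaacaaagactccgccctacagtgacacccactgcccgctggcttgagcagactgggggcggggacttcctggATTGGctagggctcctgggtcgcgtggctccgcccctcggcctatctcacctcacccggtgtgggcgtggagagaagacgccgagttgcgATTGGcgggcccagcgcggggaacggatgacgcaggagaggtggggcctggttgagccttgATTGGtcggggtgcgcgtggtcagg
Ebp: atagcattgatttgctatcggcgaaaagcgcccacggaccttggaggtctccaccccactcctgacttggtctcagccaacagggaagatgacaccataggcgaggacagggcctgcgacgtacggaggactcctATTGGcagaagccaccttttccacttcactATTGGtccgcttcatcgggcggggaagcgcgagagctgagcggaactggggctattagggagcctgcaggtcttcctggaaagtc
Sc5d: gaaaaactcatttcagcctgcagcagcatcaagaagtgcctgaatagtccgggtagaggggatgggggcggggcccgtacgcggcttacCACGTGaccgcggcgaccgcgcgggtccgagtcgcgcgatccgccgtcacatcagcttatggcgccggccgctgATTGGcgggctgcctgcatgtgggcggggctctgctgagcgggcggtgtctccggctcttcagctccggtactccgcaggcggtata
The promoter of Msmo1 holds 3 CCAAT boxes, that of Hsd17b7 3, that of Ebp 2 and that of Sc5d 1 beside its E-box. Over 25 members with a promoter in the table, 19 held a CCAAT box (76.0%), against 35.5% of the 9747 promoters of tested genes and 34.0% of all 33469. For every motif, members were counted once per gene and the background once per promoter. The 25 include Mvk, Insig1 and Srebf1, which were not tested and all held a CCAAT box. Among the members with a CCAAT box were Msmo1, Insig2 and Elovl5, which were higher in adults, and Mvd, Hsd17b7, Ebp, Sc5d and Acacb, which were lower. The GC box GGGCGG, the Sp1 motif, was also found in 19 of 25, against 51.2% of the promoters of tested genes. The E-box was in 4 of 25 (Insig1, Scap, Sc5d and Elovl5), against 7.45%, and the TATA box TATAAA in 1 (Hmgcs1), against 9.26%. The SREBP motif TCACNCCAC was in 0 of 25, against 0.964%, which says only that these letters are not in these windows. Both strands were searched for all 5 motifs, and none of the motifs was tested for a link with direction.

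Among the SREBP control genes, 1 of the 3 tested was higher and 2 did not pass, with a median of 0.46. Insig2, which retains the SREBP and Scap complex in the endoplasmic reticulum, read -1.87, -2.50 and -2.50 in adults and -3.72, -3.59 and -3.53 at P10. It was 2.66-fold higher in adults, and the stages were far apart even though adult array 1 exceeded the other adult arrays (difference 1.41, SE 0.26, limma adjusted p = 0.0171). Srebf2, the factor with the larger part in sterol gene transcription, read 3.22, 3.11 and 3.15 in adults and 2.61, 2.76 and 2.75 at P10. Its stages did not overlap, but its difference of 0.46 (SE 0.13) did not pass (limma adjusted p = 0.0517), although it passed with quantile normalization (limma adjusted p = 0.0334). Scap differed by 0.01 (95% interval -0.38 to 0.40), with overlapping stages. The call of Insig2 was lost with normexp background correction (0.83, limma adjusted p = 0.0608) and without P10 array 3 (limma adjusted p = 0.0733).

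Fatty acid synthesis held the largest differences of the 27 genes in the reported fit. With quantile normalization the largest was that of Scd (2.32), as it was with scaling to the array median and with the authors' values. Of the 4 tested genes of fatty acid synthesis 1 was higher, 2 were lower and 1 did not pass, with a median of -1.02. Acacb, the mitochondrial form of acetyl-CoA carboxylase, whose malonyl-CoA restrains fatty acid oxidation, read -7.30, -6.75 and -7.04 in adults and -4.54, -4.49 and -4.52 at P10. It was 5.99-fold lower in adults, with all adult arrays far below the P10 arrays (difference -2.58, SE 0.19, limma adjusted p = 0.00249). Acaca, the cytosolic form that supplies malonyl-CoA to fatty acid synthase, read -6.11, -4.72 and -5.00 in adults and -2.73, -2.72 and -3.22 at P10. It was 5.70-fold lower without overlap, and adult array 1 was the lowest by more than 1 log2 unit (difference -2.51, SE 0.50, limma adjusted p = 0.0203).

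Both carboxylase probes were dim, though well above background on every array, and background handling changed their values. With normexp the difference was -1.63 for Acaca (limma adjusted p = 0.0768) and -1.30 for Acacb (limma adjusted p = 0.08). With quantile normalization the difference was -2.07 for Acaca and -1.84 for Acacb, and both passed (limma adjusted p = 0.00727 and 0.00133). Within slide 1, where adult array 1 stood against the 3 P10 arrays, it was -3.22 for Acaca and -2.78 for Acacb, and without adult array 1 it was -1.89 and -2.38. Both kept their calls without P10 array 3 (limma adjusted p = 0.0321 and 0.0155).

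Me1, the cytosolic malic enzyme that supplies NADPH for fatty acid synthesis, read 1.88, 1.82 and 1.90 in adults and 0.72, 0.62 and 0.66 at P10. The arrays of each stage lay close together and far from the other stage, and the level was 2.31-fold higher in adults (difference 1.20, SE 0.13, limma adjusted p = 0.00478), a call lost without P10 array 3 (limma adjusted p = 0.083). Acly, which makes cytosolic acetyl-CoA from citrate, read 5.24, 5.35 and 5.44 in adults and 4.84, 4.87 and 4.83 at P10. All adult arrays were above all P10 arrays, but the difference of 0.48 (SE 0.14) did not pass (limma adjusted p = 0.0517), and a second probe gave 0.55 (limma adjusted p = 0.0592). With quantile normalization the difference of Acly was 1.1 (limma adjusted p = 0.0033).

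Elongation and desaturation had 5 tested genes, of which 2 were higher, 1 was lower and 2 did not pass, with a median of 0.14. Scd, a stearoyl-CoA desaturase that makes monounsaturated fatty acids, read -2.26, -1.75 and -1.65 in adults and -4.05, -4.03 and -4.13 at P10. It was 4.30-fold higher in adults, with more than 1.5 log2 units between the nearest arrays of the stages (difference 2.10, SE 0.24, limma adjusted p = 0.00557), and it passed in all 17 alternative settings. Elovl5, an elongase of polyunsaturated fatty acids, read -3.67, -3.20 and -3.06 in adults and -4.17, -4.16 and -4.26 at P10. It was 1.76-fold higher without overlap, close to the threshold (difference 0.82, SE 0.23, limma adjusted p = 0.0497). Elovl5 passed in only 11 of the 17 alternative settings.

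Fads2, the first desaturase of polyunsaturated fatty acid synthesis, read -3.73, -3.35 and -3.28 in adults and -2.41, -2.47 and -2.45 at P10. It was 2.11-fold lower in adults, opposite in direction to Elovl5 of the same route (difference -1.07, SE 0.19, limma adjusted p = 0.0162). Fads1, the next desaturase, read 2.54, 2.52 and 2.60 in adults and 2.75, 2.67 and 2.66 at P10. Its difference was -0.14 (95% interval -0.50 to 0.22), and it changed sign under other settings. Elovl6, which lengthens palmitate, differed by 0.14 (95% interval -0.29 to 0.57), with overlapping stages. With normexp neither Elovl5 (0.30, limma adjusted p = 0.446) nor Fads2 (-0.99, limma adjusted p = 0.0669) passed, and without P10 array 3 neither did (limma adjusted p = 0.253 and 0.123).

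The direction of the 13 called genes was the same in all 17 alternative settings run for them, whereas their number was not. These settings are not independent checks of direction. Other filters and averaging over probes leave the difference of each called gene unchanged. The replicate block repeats the differences of the fit of all 6 arrays, and the slide block repeats those within slide 1. Quantile normalization called 8 members higher and 7 lower (28.4% and 28.7% of all probes), and scaling to the array median called 10 and 5. With all 6 arrays as separate samples 10 were higher and 7 lower (29.3% and 41.3% of all probes). Without P10 array 3, which leaves 1 counted P10 sample that is assumed to vary like the adults, Scd alone was called higher and Acaca and Acacb alone lower.

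**Figure D3:**
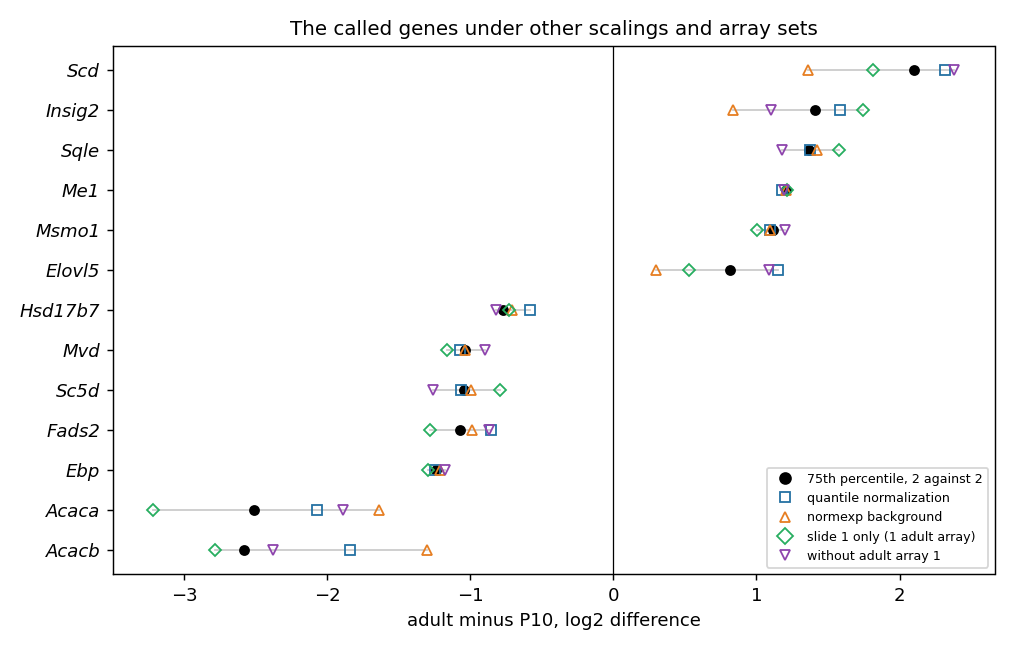
Difference between adult and P10 islets (x axis, log2) of the 13 called genes (y axis) in the reported fit and under 4 alternatives, joined by a line per gene. No point crosses 0. The points of Me1 and Ebp nearly coincide, while those of Acaca and Acacb spread over more than 1 log2 unit.

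Genes next to these pathways were read from lists named by function. The counts of each list stand against 21.3% of all tested probes called higher and 31% called lower. In the list of SREBP processing, sterol uptake and LXR genes, 2 of 8 were higher and 4 lower in adults, with a median of -0.70. Mylip, a ubiquitin ligase induced by LXR, was lower, as were Nr1h3, which encodes the oxysterol receptor LXR alpha, and Tmem97, a sterol-regulated membrane protein. Their differences were -1.55 for Mylip, -1.26 for Nr1h3 and -3.13 for Tmem97. Mbtps2, a protease that cleaves SREBP, was higher by 0.95 (SE 0.19, limma adjusted p = 0.0215).

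In sterol export, storage and oxysterol genes 3 of 10 were higher and 4 lower, with a median of 0.22. Of the 8 measured and well above background on all 6 arrays, 3 were higher and 3 lower, with a median of 0.23. Ch25h, which makes 25-hydroxycholesterol, was higher by 2.72 (SE 0.19, limma adjusted p = 0.00217), the sterol exporter Abcg1 by 1.74 and the cholesterol esterifying enzyme Soat1 by 0.87. Soat2, the other esterifying enzyme, differed by -3.18 (SE 0.14, limma adjusted p = 0.00142), opposite to Soat1, and the lysosomal lipase Lipa by -1.35. Abcg5, part of a sterol exporter of gut and liver, was not well above background on any adult array. It was tested only through the P10 arrays and was at least 5.42-fold lower in adults.

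Among other fatty acid synthesis and NADPH supply genes 3 of 8 were higher and 1 lower, with a median of 0.50. Of the 6 measured and well above background on all 6 arrays, 1 was higher and 1 lower, with a median of 0.24. Acss2, which makes acetyl-CoA from acetate, read 1.76 and 1.57 on adult arrays 1 and 2 and -0.49, -0.44 and -0.44 at P10, its adult array 3 spot being left out as an outlier (difference 2.12, SE 0.14, limma adjusted p = 0.00218). Mlx, a partner of the carbohydrate response factor, was higher by 0.88. The mitochondrial malic enzyme Me2 was not well above background on any P10 array, so it was tested only through the adult arrays. It was at least 5.53-fold higher in adults. Mecr of mitochondrial fatty acid synthesis differed by -1.33. Of 10 other elongation and desaturation genes 5 were higher and 1 lower, with a median of 0.40. Scd2, a second desaturase, was higher by 1.06, as were the dehydratases Hacd3 by 1.41 and Hacd4 by 1.09, while Hacd1 differed by -1.29.

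The glycerolipid assembly genes, which join fatty acids to glycerol, had 0 of 13 higher and 7 lower (1 and 7 with quantile normalization), with a median of -1.52, against 21.3% and 31% of all probes. Mogat2, the monoacylglycerol acyltransferase that is abundant in enterocytes, read -3.71, -3.78 and -3.78 in adults and 2.47, 2.55 and 2.48 at P10 (difference -6.24, SE 0.13, limma adjusted p = 0.00111). Dgat2, which completes triglycerides, read -2.13, -2.05 and -2.01 against 3.97, 3.95 and 3.95 (difference -6.04, SE 0.13, limma adjusted p = 0.00112). Adult and P10 arrays of both lay about 6 log2 units apart, and Plin2, a lipid droplet coat protein, differed by -2.65. The 9 enterocyte markers were lower in adults in the same comparison, with a median of -9.07. Over the 7 that were well above background on all arrays the median was -6.96. The part of these markers in the glycerolipid result was not tested.

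**Figure D4:**
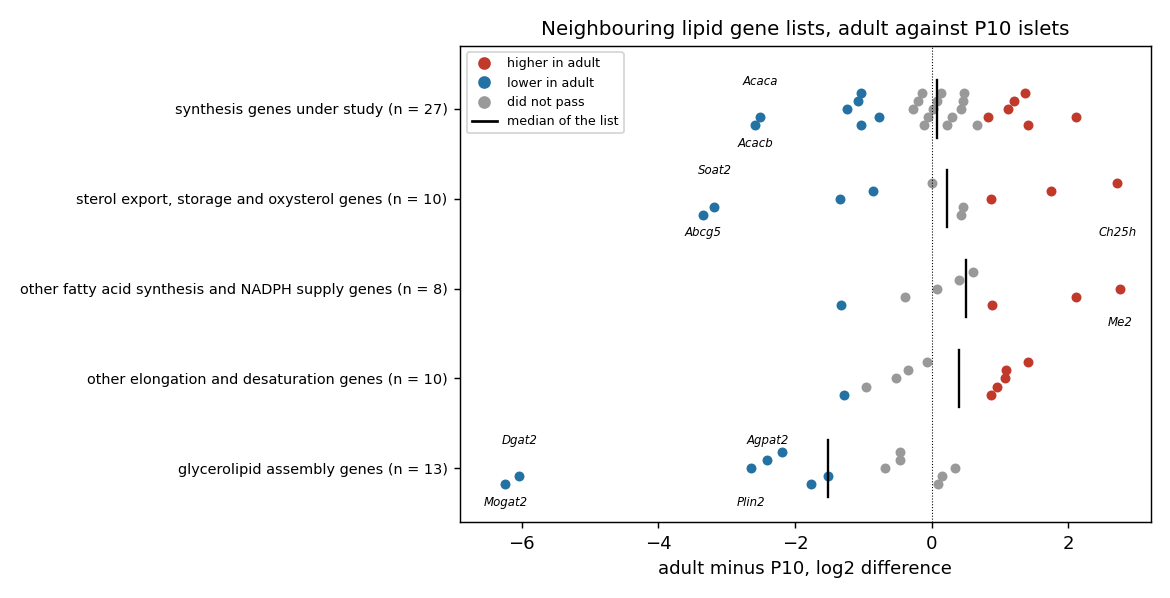
Difference between adult and P10 islets (x axis, log2) of each tested gene (points) in the synthesis genes and 4 neighbouring lists (y axis), with the median of each list as a bar. Genes beyond 2.4 are named. Abcg5 and Me2 were not well above background in 1 stage, so their fitted positions are not bounds. The glycerolipid list has its median at -1.52 and Mogat2 and Dgat2 near -6, while the synthesis genes have theirs at 0.08.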

How the data were processed

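RNA of 3 adult and 3 P10 islet samples was labelled with 1 dye and hybridised, 1 sample per array. The deposited scanner files hold spot intensity. The submitters' processing notes name Agilent Feature Extraction 11.0.1.1, and per the file headers this intensity was background-subtracted, with no scaling between arrays. For 11062 mRNA and 4976 lncRNA probes there are also normalized log2 values that the authors deposited, by a method not given in the sources used here. Their scale is close to quantile-normalized log2 intensity (99.99% and 96.05% of entries within 0.05), and 0 columns were unmatched. Column medians ran from 9.92 to 9.94 for the mRNA probes and from 7.39 to 7.58 for the lncRNA probes. The rat build of the array annotation is not that of the promoter table, so array coordinates are not used.

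Spots flagged as outliers were left out, log2 processed intensity was averaged over the spots of a probe, and the array's 75th percentile was subtracted. Each probe of the 27 genes is printed once per array. Probes well above background on all 3 arrays of a stage were fitted in R 4.3.3 with limma 3.58.1 (lmFit, then eBayes). Symbols came from RefSeq accessions, which named 14294 probes. Before averaging, arrays of a stage were compared by variance relative to spot noise and by the correlation of differences between repeat spots. Adult arrays 2 and 3 gave 1.21 and 0.09, and the other adult pairs 18.8 and 16.5, with correlations of 0.87 and 0.85. P10 arrays 1 and 2 gave 0.91 and 0.11, arrays 2 and 3 0.91 and 0.15, and arrays 1 and 3 1.31 and 0.27. The adult pair is thus slightly above spot noise and the choice of the P10 pair is close, and the fit of all 6 arrays is an alternative. The number of arrays limits the precision.

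A bound on a fold takes the dim stage, on each array, as the higher of the probe's own signal and the lowest signal well above background. For normexp, with offset 50, the median foreground signal stood in for the mean signal planned. Other alternatives were quantile and median scaling, other filters, the slide or replicate number as a block, slide 1 alone, the authors' values and each array left out. The fit was tested on simulated data. The members, lists and tests were chosen with earlier results of these data known. All 31 genes are named. Of each neighbouring list the text names the called genes, at most 3 per direction by size of difference, and of each marker list at most the first 3. Some genes of the neighbouring lists are not reported here.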

Additional observations from a re-analysis of the deposited data

How the results depend on the processing

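All 13 called genes kept their direction under every alternative run, several of which repeat the same differences. With scaling to the array median, 10 genes were called higher, 2 were lower by at least 2-fold and the median difference was 0.38; calls over all probes split into 5088 higher and 4640 lower, against 3909 and 5698 in the reported fit. With normexp, 2126 probes were higher and 2705 lower, and 3 of the 27 genes were lower, 2 of them by at least 2-fold. With all 6 arrays as samples 10 genes were higher. Without a filter on dim probes 8599 probes were lower. With the slide as a block 11 genes were higher, 9057 probes lower and the median was -0.017, and within slide 1 there were 12 higher genes and 9032 lower probes. Within slide 1 and without adult array 1, 1 adult sample is left, so the spread comes from the P10 samples and is assumed for adults. Over the 27 genes the median standard deviation between counted samples was 0.05 at P10 and 0.18 in adults. The cause of the changes in counts was not tested. Leaving out 1 array in turn gave 1576 to 5857 probes higher and 2542 to 7588 lower, 1 to 12 of the genes higher and 2 to 7 lower, and 1 to 6 higher and 2 to 6 lower by at least 2-fold, with medians of 0.05 to 0.09. Each of the lowest counts came without P10 array 3, and the highest counts of probes and of higher genes without adult array 1.

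Replicate numbers of the labels did not pair the stages, since same-numbered arrays deviated with r of -0.21, 0.08 and -0.24. With the replicate block, 9 genes were higher and 7 lower, with a median of 0.07, 5 each were higher and lower by at least 2-fold, and 4713 probes were higher and 6786 lower. Acaca, Acacb, Insig2, Elovl5, Fads2 and Hsd17b7 lost their calls with normexp, while Scd kept its call.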

Other observations

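Adult array 1 differed from the mean of adult arrays 2 and 3 by a median of 0.37 in size over all tested probes and 0.26 over the 27 synthesis genes. P10 array 3 differed from the mean of the other P10 arrays by 0.09 and 0.07. The gap of adult array 1 averaged over a role group was -0.45 for fatty acid synthesis, -0.26 for elongation and desaturation and 0.19 for SREBP control. Rat and slide cannot be told apart in it.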
